A study of Rattus norvegicus with 6 samples.

Results

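Forkhead transcription factors were compared between RCS cells, a cartilage-like line that derives from a chondrosarcoma of the rat, and rib tissue of newborn rats. Members were taken by symbol, as every entry named Fox with a class letter from a to s and a number, and 39 of the 27217 genes in the table qualified. Each group has 3 RNA-seq libraries. No treatment or genetic change is given for either group. The series title places the libraries in work on SOX9, SOX5 and SOX6, the factors that drive cartilage formation. RCS cells are 1 tumour-derived line, so a difference from rib tissue can belong to cartilage cells in general or to that line, and these cannot be told apart. The rib pieces hold muscle, vessels, bone and connective tissue besides cartilage, and the sources used here do not say which cultures or animals the replicates came from. What the p-values weigh is thus the spread among these libraries, which may be technical.

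Forkhead factors share a winged-helix domain that binds DNA, and the classes A to S are told apart by the sequence of that domain. FOXM1 drives genes of late cell cycle. FOXO factors are held out of the nucleus when insulin or IGF signalling activates AKT, and otherwise turn on genes of cell-cycle arrest, stress defence and protein breakdown. In mouse growth plates, FOXA factors take part in the enlargement of chondrocytes before bone forms and FOXC factors in early chondrocyte differentiation. FOXP factors take part in the control of bone formation there.

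Values are normalized counts, taken to be reads per gene over 1 factor per library with no correction for length, and levels are therefore compared within a gene only. Depth, as reads on genes estimated from the steps between low values, was 5997569 to 8524996 in RCS libraries and 5319355 to 7492018 in rib libraries. The table gives 0 for anything at or under a normalized count of 1, which is up to 1.93 reads in the RCS library and up to 1.32 reads in the rib library where it hid the most. Differences are RCS cells minus rib tissue in log2(normalized count + 1), a scale on which the change of low genes is understated. A fold is given where both groups averaged at least 10 normalized counts. The chondrocyte markers Col2a1, Acan, Matn1, Hapln1, Comp, Sox9, Col9a1 and Col11a2 were abundant in both groups, with summed normalized counts of 53664 to 74075 in RCS cells, against 99067 to 167173 in rib tissue. RCS cells were higher at 2 of them and lower at 2, and 4 passed in neither direction. Markers of other tissues stood mostly in rib. Lower in RCS cells were 8 of the 8 skeletal muscle markers tested (sums of 66.5 to 101 in RCS cells, against 20917 to 37968 in rib tissue), 8 of 9 fibroblast and perichondrium markers (325 to 360.5 against 43569 to 82473), 7 of 8 endothelial markers (424 to 480 against 2867 to 4564), 6 of 6 macrophage markers (25.4 to 37.3 against 1189 to 2224) and 4 of 6 osteoblast markers (1277 to 1381 against 1444 to 4412). Myod1, Myog, Dcn, Prrx1, Cdh5 and Kdr were at 0 in every RCS library. Most of the endothelial sum in RCS cells was Vwf, which passed in neither direction, at 452, 428 and 388 in RCS cells and 601, 512 and 365 in rib tissue. Of 6 motile cilium markers 1 was higher and 4 lower (324 to 351 against 302 to 447). Most of these motile cilium sums, in both groups, was Ccdc39, which passed in neither direction. Over all 16809 genes tested, quantile normalization moved the median difference by 0.52 towards RCS cells and scaling to equal totals moved it by 0.34.

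Of the 39 forkhead genes, 7 were listed at 0 in all 6 libraries: Foxb1, Foxi1, Foxi2, Foxi3, Foxl2, Foxn1 and Foxr2. Foxa1, Foxe1 and Foxr1 had a value in 1 rib library each, at 1.52, 1.03 and 1.03 normalized counts, and in no RCS library. A gene was tested where 3 or more libraries held it at 1 or above, which left out these 10 and kept 29. Of the 39, 25 were listed above 0 in all 3 RCS libraries, 27 in all 3 rib libraries and 23 in all 6. All members together made up 0.163%, 0.163% and 0.157% of the normalized counts of RCS cells replicates 1 to 3, against 0.154%, 0.148% and 0.149% for rib tissue replicates 1 to 3. Their summed normalized counts ran the other way, at 7376, 7222 and 6686 in RCS cells and 8770, 8085 and 8335 in rib tissue, beside lower totals over all genes in the RCS libraries.

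Of the 29 tested members, 9 were higher in RCS cells, 14 were lower and 6 passed in neither direction at an adjusted p under 0.05 in limma with Benjamini-Hochberg adjustment over all genes. That is 31.0% higher and 48.3% lower, beside 32.9% higher and 43.6% lower over all genes tested (5536 and 7324 genes, but 8000 and 4924 under quantile normalization). Among the higher members were Foxe3, Foxf1, Foxh1, Foxk2, Foxm1, Foxn2, Foxn4 and Foxo4. The share of members called, 79.3%, stood close to the 76.5% of all genes, so the number of called members is what the comparison gives for genes in general. At least 2-fold, 7 members were higher (24.1%, background 14.1%) and 11 lower (37.9%, background 33.1%). These counts take in low genes, and the higher Foxe3, Foxf1, Foxh1 and Foxn4 averaged under 10 normalized counts in rib tissue. Where both groups averaged at least 10, the median absolute difference was 0.69 over 18 members and 0.66 over 11663 genes. The groups did not overlap at 23 members (79.3%, background 78.9%), with RCS cells above at 9 (background 34.4%) and rib tissue above at 14 (background 44.5%). Foxd1, Foxd3 and Foxo6 passed the filter through rib tissue alone and Foxn4 through RCS cells alone, so these 4 had to differ. The median difference was -0.32 over the members and -0.15 over all genes tested, and the median within-group SD was 0.21 and 0.20.

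**Figure D1:**
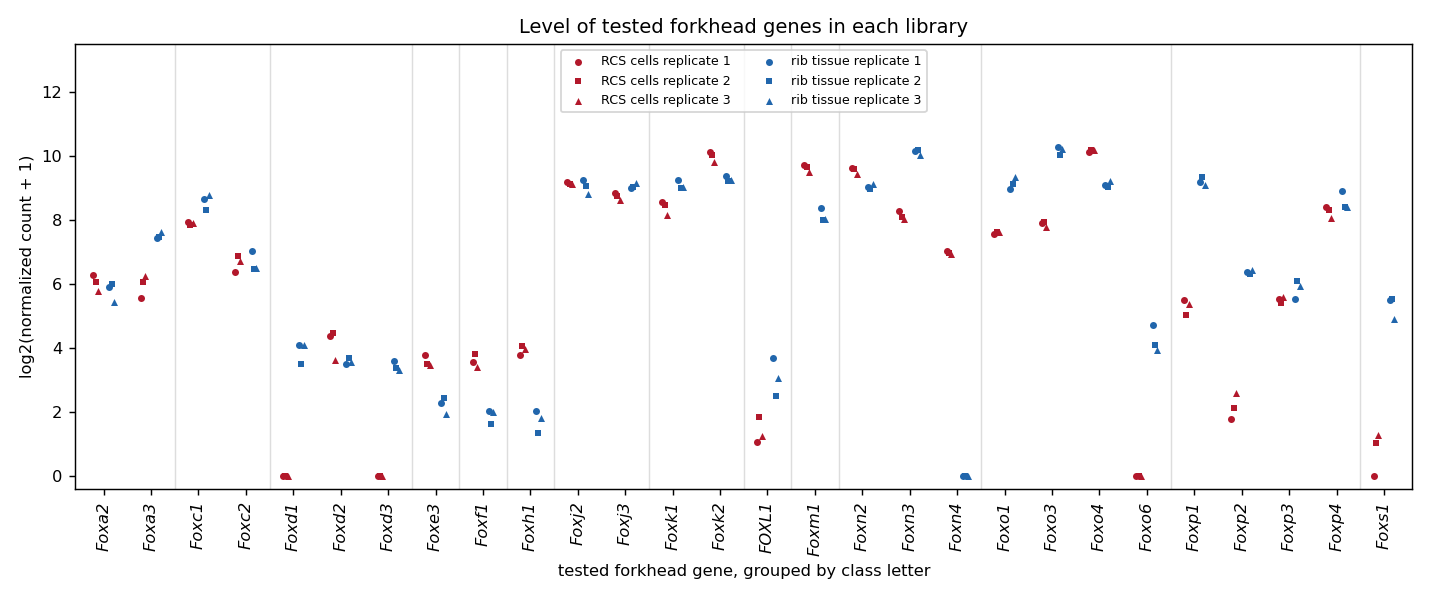
Level of the tested forkhead genes described here in each library, as log2(normalized count + 1), with genes on the horizontal axis grouped by class letter, RCS cells at the left of each gene in red and rib tissue at the right in blue, and 1 marker per replicate. Foxn4 stands high in RCS cells and at 0 in rib tissue, Foxp1, Foxp2 and Foxs1 stand far higher in rib tissue, and replicates of a group lie close together except at low levels.

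**Figure D2:**
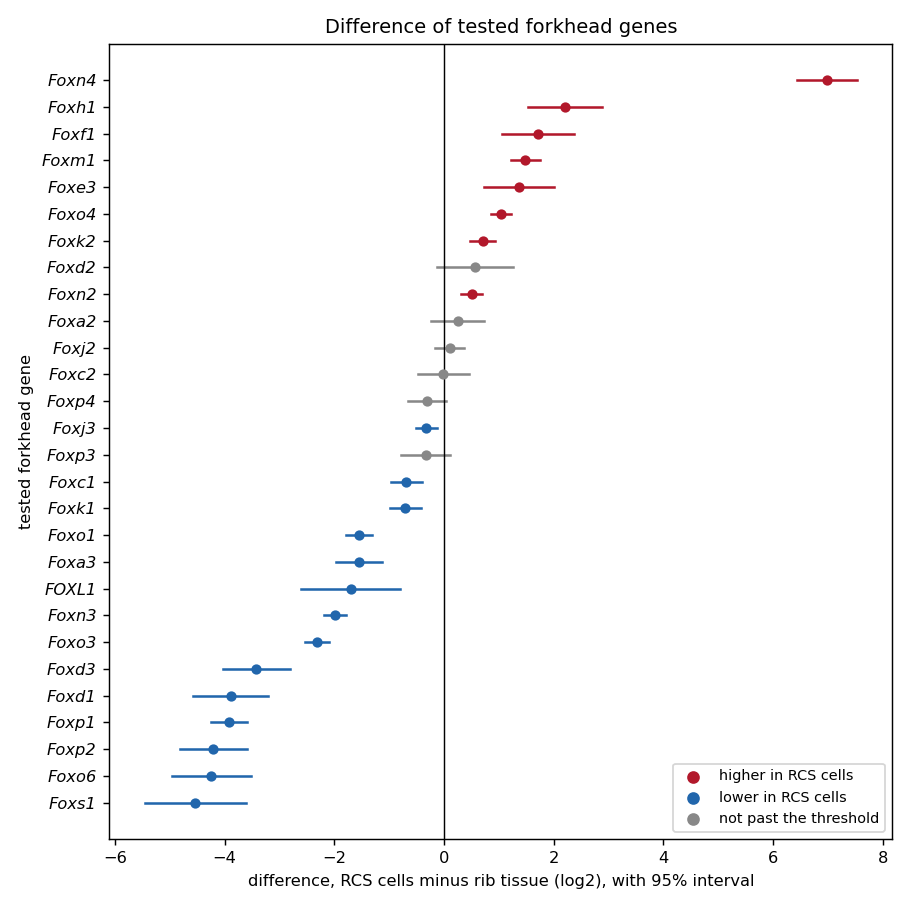
Difference of the tested forkhead genes described here, RCS cells minus rib tissue in log2 units, as a point with its 95% interval from limma, ordered from the highest at the top. Red marks genes higher in RCS cells, with Foxn4 at the top (6.98), blue the lower ones, down to Foxs1 (-4.53), and grey those that passed in neither direction.

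FOXM1, the factor of late cell cycle, was higher in RCS cells. Foxm1 (ENSRNOG00000005936) stood at 835, 803 and 728 normalized counts in RCS cells, against 329, 257 and 262 in rib tissue. All 3 RCS libraries were above all 3 rib libraries. It was 2.80-fold higher, a difference of 1.48 (SE 0.11, n = 3 each; limma adjusted p 6.22e-06 by Benjamini-Hochberg). In the RefSeq annotation of GRCr8 the gene's span overlaps that of Tex52, whose row was also higher in RCS cells (difference 1.12, SE 0.22). Use of strand in the counting is not given in the sources used here, so reads of overlapping genes could be shared.

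Late cell cycle genes that FOXM1 is known to turn on were higher in RCS cells. All 17 of the 17 tested were higher, beside 32.9% of all genes tested. At least 2-fold higher were 14 of them, beside 14.1% of all genes, and the median difference was 1.45. The part of FOXM1, or of a larger share of dividing cells, in these differences was not tested. The mitotic kinase gene Aurka stood at 618, 635 and 647 normalized counts in RCS cells and 158, 159 and 106 in rib tissue (4.55-fold higher). The spindle checkpoint kinase gene Bub1b was 4.21-fold higher, the polo-like kinase gene Plk1 3.55-fold and the mitotic cyclin gene Ccnb1 3.09-fold. The smallest called differences of the list were those of the phosphatase gene Cdc25b (1.72-fold, SE 0.28 log2, limma adjusted p 0.0327 by Benjamini-Hochberg) and the centromere gene Cenpf (1.83-fold). Cdc25b stood at 445, 394 and 368 normalized counts in RCS cells and 339, 265 and 141 in rib tissue.

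MuvB, the complex through which FOXM1 and B-MYB reach their promoters, and the pocket proteins and E2F factors of the related DREAM repressor split in direction. Among 10 tested, 6 genes were higher in RCS cells, 1 was lower and 3 passed in neither direction. The shares over all genes tested were 32.9% higher and 43.6% lower. Cyclic loess gave 5 higher and 2 lower genes of this list. Mybl2, which encodes B-MYB, stood at 652, 617 and 602 normalized counts in RCS cells and 191, 137 and 122 in rib tissue (4.21-fold). The MuvB subunit gene Lin9 was 3.53-fold higher and the E2F gene E2f5 1.43-fold. Rbl2, the gene of the pocket protein p130 that marks resting cells, was the 1 lower gene, at 307, 332 and 380.3 in RCS cells and 518, 580.4 and 635 in rib tissue (1.70-fold higher there).

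The upstream windows of these cell cycle genes were searched for short motifs, since B-MYB, MuvB and NF-Y sites are known features of such promoters. RefSeq windows of 250 bases before the gene start in GRCr8 were available for 15 of the list. The CHR letters TTTGAA, in either strand, were in 40.0% of the 15, beside 16.2% of 33469 promoters of the same length, and the CCAAT letters were in 80.0% beside 34.0%. The forkhead letters GTAAACA were in 1 window of the 15 (6.67%, beside 3.21%). The 15 windows are 1 per gene, while the 33469 promoters were not reduced in that way. The windows of Aurka and Bub1b, which had the largest differences of the list, held no CHR, CCAAT or forkhead letters. The 3 windows below, of Ccnb1, Plk1 and Cenpf, held no CHR or forkhead letters. They are shown for the position of their CCAAT letters, in capitals as read on the gene's strand or reversed as ATTGG. They are chr2:33655226-33655475 on the minus strand, chr1:186147408-186147657 on the plus strand and chr13:103760887-103761136 on the minus strand.
Ccnb1: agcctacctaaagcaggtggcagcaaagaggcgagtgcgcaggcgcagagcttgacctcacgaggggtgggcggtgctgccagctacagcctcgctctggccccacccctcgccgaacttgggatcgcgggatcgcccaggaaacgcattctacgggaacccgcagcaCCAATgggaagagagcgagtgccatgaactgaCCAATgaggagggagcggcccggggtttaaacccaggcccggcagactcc
Plk1: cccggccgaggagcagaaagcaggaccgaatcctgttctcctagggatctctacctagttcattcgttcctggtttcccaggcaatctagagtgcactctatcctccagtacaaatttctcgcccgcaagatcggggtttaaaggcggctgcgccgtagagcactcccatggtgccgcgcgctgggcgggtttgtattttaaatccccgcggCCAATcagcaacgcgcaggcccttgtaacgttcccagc
Cenpf: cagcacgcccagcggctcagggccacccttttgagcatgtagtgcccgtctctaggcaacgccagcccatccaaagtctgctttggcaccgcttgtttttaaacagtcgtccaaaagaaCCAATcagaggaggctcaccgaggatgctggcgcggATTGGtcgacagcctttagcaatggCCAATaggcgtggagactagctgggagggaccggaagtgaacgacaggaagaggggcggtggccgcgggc
In Ccnb1 the matches begin 82 and 50 bases before the start, in Plk1 38 bases before it, and in Cenpf 131, 95 and 70 bases before it. A match is a description of the letters only.

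FOXO factors split in direction. Foxo4 (ENSRNOG00000033316) stood at 1108, 1171 and 1156 normalized counts in RCS cells and 547, 525 and 597 in rib tissue, 2.06-fold higher (difference 1.04, SE 0.08). Foxo3 (ENSRNOG00000000299) stood at 238, 244 and 216 in RCS cells and 1247, 1048 and 1188 in rib tissue (4.97-fold higher there, difference -2.31, SE 0.09). Foxo1 (ENSRNOG00000013397) stood at 189, 197 and 194 in RCS cells and 504, 561 and 643 in rib tissue (2.92-fold higher there, difference -1.55, SE 0.10). The groups were apart at each of these genes, with RCS cells above at Foxo4 and below at Foxo1 and Foxo3. Foxo6, best known from the brain, was at 0 in all 3 RCS libraries and stood at 25.1, 15.9 and 14.3 in rib tissue. The limma adjusted p by Benjamini-Hochberg was 5.64e-06 for Foxo4, 2.00e-07 for Foxo3 and 2.77e-06 for Foxo1.

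The ratio of Foxo4 to Foxo3 within a library does not depend on how libraries are scaled. Its log2 value was 2.22, 2.26 and 2.41 in RCS cells and -1.19, -0.996 and -0.99 in rib tissue, 3.35 apart. Foxo4 over Foxo1 was 2.55, 2.57 and 2.57 in RCS cells and 0.12, -0.10 and -0.11 in rib tissue, 2.59 apart. Each ratio had to separate the groups, since its genes were apart in opposite directions. The exact two-sided permutation p of 0.1, the smallest that 3 libraries against 3 can give, was thus fixed in advance. Both ratios are among 6 of related genes that were chosen after the values were seen. They show unequal change, not molar amounts.

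Receptors, adaptors and kinases that act on FOXO proteins were lower in RCS cells or passed in neither direction. Of 12 tested, 8 were lower, 4 neither and 0 higher, beside 43.6% lower and 32.9% higher over all genes tested. Quantile normalization and scaling to equal totals each gave 2 higher and 6 lower. Irs2, an insulin receptor adaptor gene that FOXO factors are known to turn on, was listed at 0, 1.56 and 0 in RCS cells and 740.4, 612 and 583 in rib tissue. Pik3r1, a regulatory subunit of PI3 kinase, was 5.59-fold higher in rib tissue. The receptor gene Insr and the kinase gene Pdpk1 differed least among the called genes, at 1.22-fold and 1.21-fold higher in rib tissue. The kinase gene Akt1 stood at 1387, 1426 and 1296 in RCS cells and 1364, 1135 and 1122 in rib tissue (difference 0.19, SE 0.10) and did not pass.

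Genes that FOXO factors are known to turn on went both ways. Of 18 tested, 10 were lower in RCS cells, 2 were higher and 6 passed in neither direction. That is beside 43.6% lower and 32.9% higher over all genes tested. The median difference was -0.64, and quantile normalization gave 6 higher and 10 lower. The 2 higher genes encode the cell cycle inhibitors p21 and p27. Cdkn1a stood at 613, 707 and 651 in RCS cells and 470.0, 456 and 306 in rib tissue, and Cdkn1b at 559.8, 501 and 447 against 369, 278 and 286, each 1.62-fold higher. Trim63, a ubiquitin ligase gene of muscle breakdown, was at 0 in all 3 RCS libraries and stood at 128, 134 and 72.7 in rib tissue. Its partner in muscle breakdown, Fbxo32, stood at 60.0, 59.8 and 53.5 in RCS cells and 66.9, 61.8 and 47.9 in rib tissue and did not pass. The joint lubricant gene Prg4 was 8.36-fold higher in rib tissue. Muscle markers moved the same way as Trim63, with Myod1 and Myog at 0 in every RCS library, and their part in the FOXO values was not tested. In such bulk samples, fewer cells of a type and less RNA per cell cannot be told apart.

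**Figure D3:**
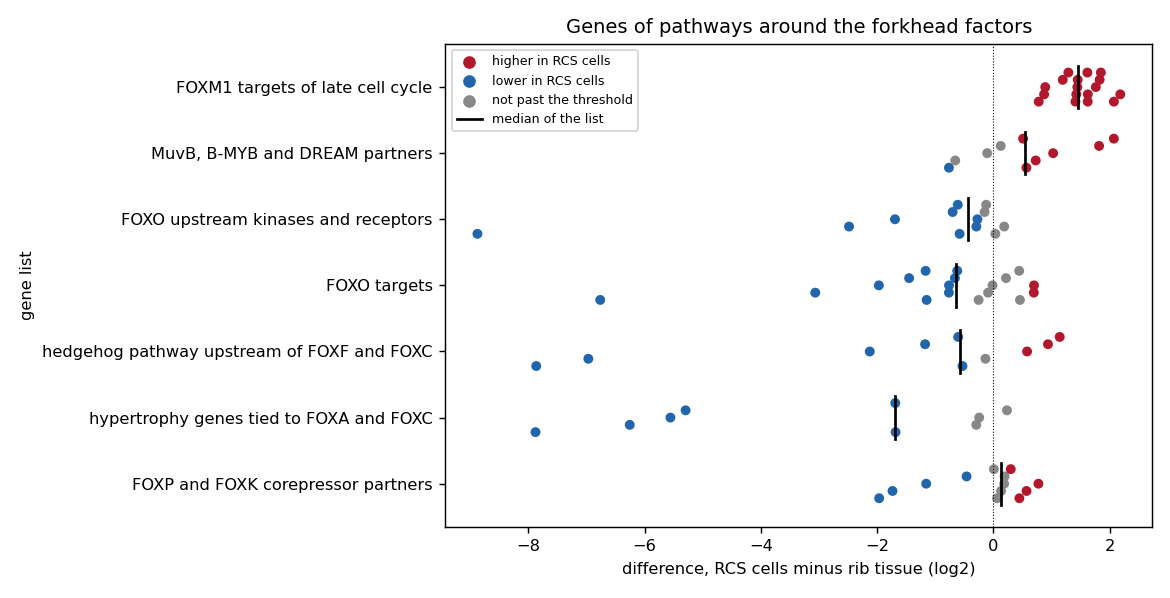
Difference of each tested gene in 7 lists around the forkhead factors, RCS cells minus rib tissue in log2 units, 1 point per gene, with the median of each list as a black bar and vertical scatter used only to keep points apart. All 17 FOXM1 targets lie above 0 in red, the FOXO upstream genes hold no red point, and the hypertrophy list reaches to -7.88.

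Foxp1 and Foxp2 were far lower in RCS cells, and among the 18 members that averaged at least 10 normalized counts in both groups Foxp1 had the largest fold. Foxp1 (ENSRNOG00000009184) stood at 43.7, 31.4 and 40.6 normalized counts in RCS cells, against 586, 643 and 549 in rib tissue. Rib tissue was 15.1-fold higher (difference -3.92, SE 0.14; limma adjusted p 1.28e-07 by Benjamini-Hochberg). Foxp2 (ENSRNOG00000005429) stood at 2.44, 3.37 and 4.96 in RCS cells and 81.0, 78.2 and 84.9 in rib tissue (difference -4.20, SE 0.27). Foxp4 did not pass, at 337, 315 and 268 in RCS cells and 475, 335 and 340.2 in rib tissue (difference -0.31, 95% interval -0.66 to 0.04), but was called under cyclic loess (-0.49) and with the replicate block (-0.31), and its sign turned under scaling to equal totals (0.03).

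The span of Foxp1 overlaps that of the neighbouring gene Eif4e3 in GRCr8. Eif4e3 was at 0 in all 3 RCS libraries and stood at 126, 118 and 142 in rib tissue. Gpr27, the next gene on one side, was also at 0 in every RCS library, at 34.7, 15.5 and 20.1 in rib tissue. The upstream window of Foxp1 is shown because it was the only 1 of 18 windows of tested members with the forkhead letters GTAAACA in either strand (5.56%, beside 3.21% of all promoters). The window is chr4:133353281-133353530 of GRCr8 on the minus strand, before the 1 start used for this gene. The letters, reversed as TGTTTAC and in capitals, begin 164 bases before that start. Other transcript starts of Foxp1 were not examined.
Foxp1: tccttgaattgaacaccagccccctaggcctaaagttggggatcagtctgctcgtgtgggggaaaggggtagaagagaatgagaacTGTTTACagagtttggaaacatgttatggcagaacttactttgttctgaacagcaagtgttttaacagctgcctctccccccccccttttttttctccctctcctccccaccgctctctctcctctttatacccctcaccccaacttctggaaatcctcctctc

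Foxp3, the factor of regulatory T cells, was detected in every library and passed in neither direction. It stood at 45.1, 41.7 and 47.4 normalized counts in RCS cells and 45.5, 66.7 and 59.5 in rib tissue (difference -0.33, 95% interval -0.78 to 0.11). The sign turned under quantile normalization (0.84, called) and scaling to equal totals (0.00), and it was called lower with array weights (-0.45) and without rib tissue replicate 1 (-0.49). T cell markers were near 0: Cd3d was at 0 in all 6 libraries, Cd3e reached 3.37 at most in RCS cells and 1.52 in rib tissue, and Cd8a was at 0 in every RCS library. The sum of 7 T cell markers was 0 to 5.45 in RCS cells, against 143 to 244 in rib tissue, nearly all of it Cd4, and of the 2 that could be tested 1 was lower in RCS cells. The span of Foxp3 overlaps those of Ccdc22 and Ppp1r3f in GRCr8, and the Ccdc22 row stood at 186, 193 and 196 in RCS cells and 177, 172 and 146 in rib tissue. The part of reads from these genes in the Foxp3 values was not tested.

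Corepressor and partner genes of the FOXP and FOXK factors went both ways. Of 13 tested, 4 were higher in RCS cells, 4 were lower and 5 passed in neither direction. Among all genes tested, 32.9% were higher and 43.6% lower. Quantile normalization gave 7 higher and 4 lower, and scaling to equal totals 9 higher and 3 lower. Gatad2a, a subunit of the NuRD chromatin complex that FOXP proteins recruit, was 1.71-fold higher. Gatad2b, of the same complex, went the other way and was 2.23-fold higher in rib tissue. Bap1, a deubiquitinase that FOXK proteins bring to DNA, was 1.49-fold higher in RCS cells. Nfatc2 and Nfatc1, genes of the calcium-regulated factors that pair with FOXP proteins, were 3.90-fold and 3.33-fold higher in rib tissue.

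The FOXK genes split. Foxk2 (ENSRNOG00000036663) stood at 1104, 1049 and 903 normalized counts in RCS cells and 669, 590.4 and 611 in rib tissue, 1.63-fold higher (difference 0.71, SE 0.10). Foxk1 (ENSRNOG00000001104), known in the mouse from muscle progenitors, stood at 377, 349.7 and 284 in RCS cells and 611, 507 and 524 in rib tissue (1.63-fold higher there, difference -0.70, SE 0.12). No library of one group lay within the range of the other at either gene. The log2 ratio of Foxk2 to Foxk1 within a library was 1.55, 1.58 and 1.67 in RCS cells and 0.13, 0.22 and 0.22 in rib tissue, 1.41 apart. The limma adjusted p by Benjamini-Hochberg was 0.000219 for Foxk2 and 0.000965 for Foxk1. The upstream window of Foxk2 is chr10:107040683-107040932 of GRCr8 on the plus strand. Windows were available for 4 of the higher members, not for Foxm1, and that of Foxk2 is shown as the only 1 with CCAAT letters. Among the windows of 18 tested members, 27.8% held CCAAT or its reverse ATTGG, beside 34.0% of all promoters, 5.56% held the CHR letters beside 16.2%, and 0 held the SOX letters AACAAT, beside 10.3%. The capitals mark ATTGG.
Foxk2: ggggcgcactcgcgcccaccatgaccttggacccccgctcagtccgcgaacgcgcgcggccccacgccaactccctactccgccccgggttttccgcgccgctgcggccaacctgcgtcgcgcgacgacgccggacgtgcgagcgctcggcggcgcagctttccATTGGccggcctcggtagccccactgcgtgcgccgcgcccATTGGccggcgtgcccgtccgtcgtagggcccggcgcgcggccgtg

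Foxn2 and Foxn3, near relatives, also moved apart. Foxn3 (ENSRNOG00000004709), a repressor tied to the DNA damage checkpoint, stood at 309, 274 and 262 normalized counts in RCS cells and 1144, 1157 and 1052 in rib tissue (3.96-fold higher there, difference -1.99, SE 0.09; limma adjusted p 3.35e-07 by Benjamini-Hochberg). Foxn2 stood at 788, 765 and 684 in RCS cells and 518, 502 and 553 in rib tissue, 1.42-fold higher (difference 0.51, SE 0.08). The log2 ratio of Foxn2 to Foxn3 was 1.35, 1.47 and 1.38 in RCS cells and -1.14, -1.20 and -0.93 in rib tissue, 2.49 apart. Foxj3 was slightly lower in RCS cells, at 457, 429 and 397 against 514, 526 and 566 (difference -0.32, SE 0.08), a call lost under scaling to equal totals (0.02). Foxj2, at 581, 553 and 554 in RCS cells and 606, 534 and 446 in rib tissue, did not pass (difference 0.10, 95% interval -0.16 to 0.36), and was called higher under scaling to equal totals (0.44).

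Foxn4 was detected in RCS cells alone. Foxn4 (ENSRNOG00000000691), a factor of retinal and spinal cord progenitors, stood at 129, 124 and 122 normalized counts in RCS cells and was listed at 0 in every rib library. The 3 RCS libraries lay close together. Acacb, next to Foxn4 in GRCr8, was lower in RCS cells, at 118, 135 and 137 against 822, 830 and 398 in rib tissue (difference -2.31, SE 0.26).

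FOXC genes, active in cartilage and vessel progenitors, were detected in every library. Foxc1 (ENSRNOG00000017800) stood at 244, 228 and 240.2 normalized counts in RCS cells and 403, 317 and 434 in rib tissue (1.61-fold higher there, difference -0.68, SE 0.12; limma adjusted p 0.00102 by Benjamini-Hochberg). Foxc2, also a factor of lymphatic vessels, stood at 82.2, 117 and 104 in RCS cells and 129.9, 88.2 and 89.0 in rib tissue, with overlapping groups (difference -0.01, 95% interval -0.47 to 0.45). Of 4 lymphatic endothelial markers 3 were lower in RCS cells (sums of 493 to 519 in RCS cells, against 1027 to 1338 in rib tissue); Prox1 and Flt4 were at 0 in every RCS library, and Pdpn, which other cells also express, stood at 485 to 512 in RCS cells, against 441 to 584 in rib tissue.

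Foxf1, Foxc2 and FOXL1 are neighbours in GRCr8, with Mthfsd between Foxf1 and Foxc2, and each took its own course. Foxf1, a hedgehog-responsive factor of lung and gut mesenchyme, stood at 10.8, 13.1 and 9.47 normalized counts in RCS cells and 3.03, 2.05 and 2.99996 in rib tissue (difference 1.71, SE 0.28). FOXL1, a factor of gut mesenchyme, stood at 1.09, 2.59 and 1.36 in RCS cells and 11.95, 4.66 and 7.34 in rib tissue (difference -1.70, SE 0.39), a call lost with a change of sign under quantile normalization (0.91) and cyclic loess (0.40). Mthfsd was higher in RCS cells by 0.46 (SE 0.14). The values of Foxf1 and FOXL1 rest on few reads, since 1 read was worth 0.519 to 1.03 normalized counts.

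Hedgehog pathway genes, known to lie upstream of FOXF and FOXC factors, split in direction. Of 10 tested, 3 were higher in RCS cells, 6 were lower and 1 passed in neither direction. Over all genes tested, 32.9% were higher and 43.6% lower. Quantile normalization gave 4 higher and 5 lower genes of this list. The target and transcription factor gene Gli1 stood at 958, 806 and 767 in RCS cells and 507, 377 and 437 in rib tissue (1.92-fold higher), and the receptor and target gene Ptch1 was 1.495-fold higher. The ligand gene Dhh was 2.21-fold higher. The ligand gene Ihh stood at 1.63, 1.04 and 2.13 in RCS cells and 344, 408 and 233 in rib tissue, and the antagonist and target gene Hhip at 1.09, 1.56 and 0 against 436, 497 and 309.9.

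Foxa2 and Foxa3 were detected in every library. Foxa3 (ENSRNOG00000014256) stood at 46.6, 66.0 and 74.8 normalized counts in RCS cells and 173, 175 and 198 in rib tissue (2.93-fold higher there, difference -1.55, SE 0.18; limma adjusted p 8.69e-05 by Benjamini-Hochberg). Foxa2 stood at 76.1, 65.6 and 54.3 in RCS cells and 59.0, 63.0 and 42.5 in rib tissue and did not pass (difference 0.26, 95% interval -0.23 to 0.74), but was called higher under quantile normalization (1.32) and scaling to equal totals (0.59). The genes on either side of Foxa3, Irf2bp1 and Sympk, were both higher in RCS cells, Irf2bp1 by 0.47 (SE 0.13).

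Genes of chondrocyte hypertrophy, a process tied to FOXA and FOXC factors, were lower in RCS cells or passed in neither direction. Of 9 tested, 6 were lower, 3 neither and 0 higher, beside 43.6% lower and 32.9% higher over all genes tested. The median difference was -1.69, and quantile normalization gave 1 higher and 6 lower. Col10a1, the collagen of enlarged chondrocytes, stood at 6.86, 7.80 and 4.85 in RCS cells and 2209.7, 2889.6 and 822 in rib tissue. Ibsp, which encodes bone sialoprotein, stood at 5.99, 4.41 and 7.09 in RCS cells and 1239, 815 and 134 in rib tissue. Mef2c, a factor of hypertrophy and of muscle, was 3.22-fold higher in rib tissue and Spp1, the osteopontin gene, 3.21-fold. Runx2 stood at 1432, 1253 and 1157 in RCS cells and 1039.9, 1064 and 1152 in rib tissue (difference 0.23, SE 0.10, not past the test). Rib tissue replicate 3 was lowest of the rib libraries at Col10a1 and Ibsp, while Foxa3 was highest there. The osteoblast marker Dmp1 was at 0 in every RCS library and at 319, 273 and 13.4998 in rib tissue, lowest in that same rib library. Ibsp, Alpl and Spp1 belong to both the hypertrophy list and the osteoblast markers. The part of osteoblasts in the differences of the hypertrophy genes was not tested.

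Foxd1, Foxd3 and Foxs1 stood at low levels in rib tissue and at or near 0 in RCS cells. Foxd1, a factor of stromal progenitors, was at 0 in all 3 RCS libraries and stood at 16.0, 10.3 and 16.0 normalized counts in rib tissue. Foxd3, a factor of neural crest, was likewise at 0 in every RCS library and at 10.9, 9.23 and 8.9999 in rib tissue. Foxs1, found in mouse pericytes, stood at 0, 1.04 and 1.42 in RCS cells and 43.7, 45.1 and 28.7 in rib tissue (difference -4.53, SE 0.40; limma adjusted p 1.46e-05 by Benjamini-Hochberg). The next gene on one side, the skeletal muscle kinase gene Mylk2, was also at 0 in every RCS library and stood at 664, 533 and 280.0 in rib tissue. The summed pericyte and smooth muscle markers were 1308 to 1684 in RCS cells, mostly Cspg4, against 9233 to 9820 in rib tissue. All 7 of those tested were lower in RCS cells, and Rgs5, Abcc9 and Kcnj8 were at 0 in every RCS library. Their part in the Foxs1 difference was not tested.

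Foxd2, Foxe3 and Foxh1 were low in both groups. Foxe3, a lens factor, stood at 12.6, 10.4 and 10.1 normalized counts in RCS cells and 3.87, 4.43 and 2.78 in rib tissue (difference 1.37, SE 0.28). Its neighbour Foxd2, which the table describes with the protein name of FOXD1, stood at 19.6, 21.3 and 11.2 in RCS cells and 10.3, 11.9 and 10.8 in rib tissue and did not pass (difference 0.57, 95% interval -0.12 to 1.26), but was called without RCS cells replicate 3 (0.84) and under quantile normalization (2.90), cyclic loess (2.11) and scaling to equal totals (0.88). Foxh1, a SMAD partner in nodal signalling, stood at 12.8, 15.7 and 14.5 in RCS cells and 3.03, 1.54 and 2.50 in rib tissue (difference 2.21, SE 0.29). Its span overlaps that of the kinesin gene Kifc2 in GRCr8, whose row stood at 133, 165 and 181 in RCS cells and 41.2, 38.7 and 26.5 in rib tissue (difference 2.16, SE 0.21). The part of Kifc2 reads in the Foxh1 values was not tested.

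**Figure D4:**
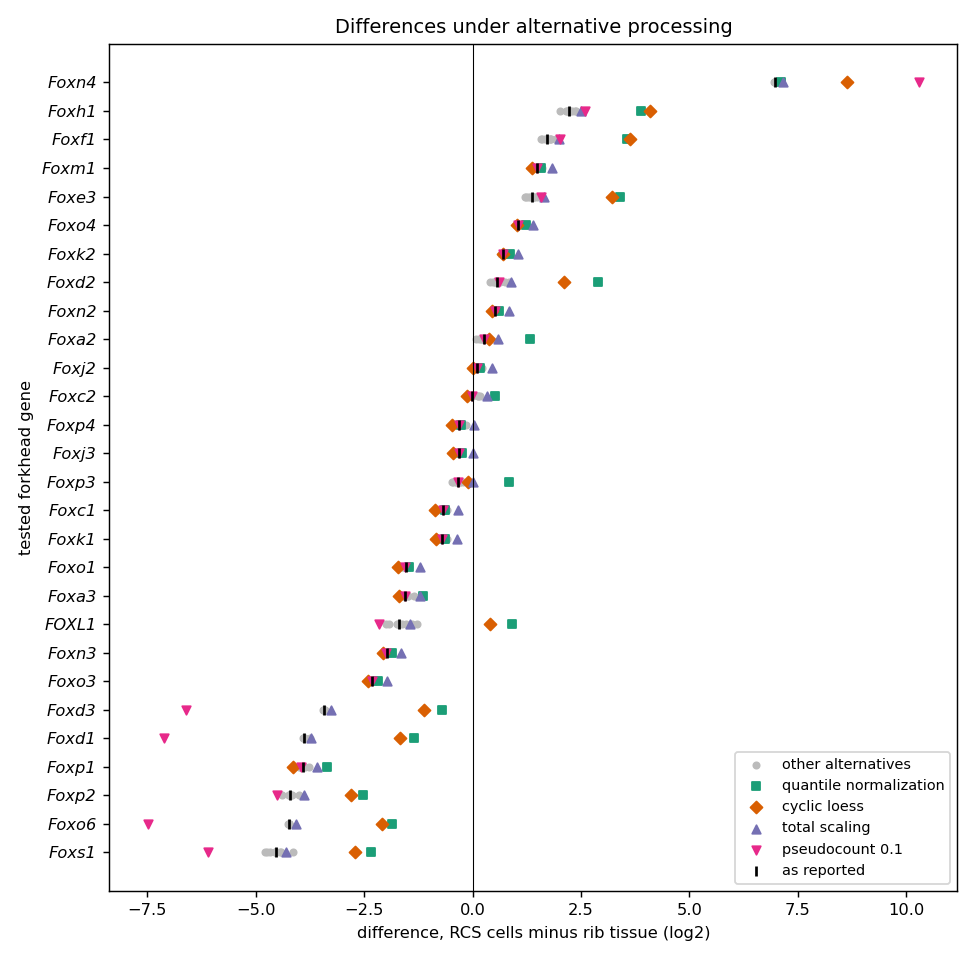
Difference of the tested forkhead genes described here, RCS cells minus rib tissue in log2 units, as reported (black bar) and under each alternative in which the gene was tested, with genes in the order of the reported difference. Points of Foxm1, Foxo4, Foxk2 and Foxn2 stay above 0 and those of Foxo1, Foxo3, Foxn3, Foxp1 and Foxk1 below 0, while FOXL1 crosses 0 under quantile normalization and cyclic loess.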

How the data were processed

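RNA was sequenced from 3 RCS and 3 rib libraries, grouped by sample title. In the 1 table deposited, the authors gave log2 values. The 5 most frequent low values of each library were used to set a step, taken as the worth of 1 read, and values were read as log2 of reads over 1 factor per library, although the table's name carries a unit per length. The submitters' processing notes name CASAVA 1.8, DESeq and the build rn5 without saying what each was used for. Aligner, counting rule and strand use: not given in the sources used here. Values worth up to 10 reads came within 0.01 of a whole read in 38.6% to 54.6% of cases (2% by chance), so this reading holds for part of the low values only and no count model was used. The deposited log2 values were turned to normalized counts and given a pseudocount of 1 and a log2 scale again. limma 3.58.1 under R 4.3.3, with a mean-variance trend and two-sided tests, was fitted to 16809 genes that reached 1 in 3 or more libraries, with Benjamini-Hochberg adjustment over all of them and a threshold of 0.05. The fit was tested on simulated data. Estimated reads are a library's total over its step, and the step sets the precision of low values.

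The lists around the forkhead factors (FOXM1 targets, MuvB and DREAM partners, FOXO upstream genes, FOXO targets, hedgehog, hypertrophy, corepressors and 10 lists of cell type markers) were described by counts, with no test over a list. Members and lists were chosen with earlier results of these data known. Of each list other than markers, the 2 largest and the 2 most negative called differences and 9 genes fixed by name are given. Fbxo32, Gatad2b, most marker genes named and the neighbours of members were chosen after their values were seen. Of 204 names in 24 lists, 192 matched by symbol, 1 by another case and 2 through Entrez identifiers, and 9 were not analysed here. Promoter windows and neighbours are RefSeq's in GRCr8, and 24 of 39 members had a window. Spans were used for names and order only. Some genes that enter the counts are not reported here. No 2 libraries were identical (0 pairs).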

Additional observations from a re-analysis of the deposited data

How the results depend on the processing

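Over 16 alternatives, 21 of the 23 called forkhead genes kept their call wherever they were tested, and Foxj3 and FOXL1 did not. Between 8 and 12 members were higher and 11 to 15 lower, and over all genes quantile normalization gave 8000 higher and 4924 lower and scaling to equal totals, an alternative chosen after seeing the data, 7366 and 6118, against 5536 and 7324. Signs turned for Foxc2 under quantile normalization (0.51), array weights (0.13) and scaling to equal totals (0.33) and, leaving out a replicate, from -0.12 to 0.17. They turned for Foxj2 when a replicate was left out (-0.0155 to 0.21), for Foxj3 (0.0162) and Foxp4 (0.0324) under scaling to equal totals, for FOXL1 under quantile normalization (0.91) and cyclic loess (0.40), and for Foxp3 under quantile normalization (0.84) and scaling to equal totals (0.00076). The cause was not tested.

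Counts in lists moved as follows. Lower MuvB and DREAM genes were 2 under cyclic loess and with the replicate block, and 1 to 2 when a replicate was left out. Higher FOXO upstream genes were 2 under quantile normalization, cyclic loess and scaling to equal totals, 1 with array weights and 0 to 1 when a replicate was left out. Higher FOXO targets were 6 under quantile normalization, 4 under cyclic loess, array weights and scaling to equal totals, and 2 to 4 when a replicate was left out. Higher hypertrophy genes were 1 under quantile normalization, cyclic loess, array weights and scaling to equal totals, and 0 to 1 when a replicate was left out. Higher corepressor genes were 7 under quantile normalization and 9 under scaling to equal totals. The other counts of lists stayed within 1.5 times.

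No pairing of libraries by number showed in the values. Deviations of same-numbered libraries correlated at 0.06, -0.08 and 0.05, and not every library correlated best with its own number. Deviations from the mean of 3 libraries are tied to one another, so this check cannot exclude a pairing. With the replicate block, 5536 genes were higher and 7340 lower, 9 forkhead genes higher and 15 lower, Foxp4 being added. Without a rib library, Foxd1, Foxd3 and Foxo6 fell below the filter, as did Foxn4 without an RCS library. Genes under about 10 normalized counts rest on few reads, and their sizes depend on the pseudocount.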
